A study of Neurospora crassa with 12 samples.

Results

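A set of 89 Neurospora crassa genes stood on opposite sides of the untreated level at 30 and at 60 min of treatment with HSAF. Of these, 65 genes were low at 30 min and high at 60 min, and 24 genes were high at 30 min and low at 60 min. The members were chosen from the deposited read counts. The counts of each library were divided by its size factor, the library's median ratio to a reference library, over the 5845 genes with counts in all 12 libraries. The 3 libraries of each time were then averaged, and 5 was added to each mean. Of 9729 genes with an NCU identifier, 5452 had a mean of at least 50 at some time and were kept. A gene was a member if its mean plus 5 was at most 0.5 times that of the untreated libraries at 30 min and at least 2 times it at 60 min, or the reverse. The members made up 1.63% of the genes kept, 1.19% low then high and 0.44% high then low. The values at 0, 30 and 60 min chose the members, so they are given below as a description and without a test.

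The libraries came from mycelium of the wild-type strain FGSC2489, which the labels place 48 h after inoculation. HSAF was used at 40 μM, and each time point had 3 libraries: HSAF-0 (untreated, libraries A, B and C), HSAF-5 (5 min, D, E and F), HSAF-30 (30 min, G, H and I) and HSAF-60 (60 min, J, K and L). No group received solvent alone or was collected later without HSAF, so an effect of HSAF and an effect of time or handling cannot be told apart. The paper calls the libraries of a group biological replicates. The labels do not say whether they came from separate cultures, and the p-values below measure only the spread between these libraries.

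HSAF, the heat-stable antifungal factor, is a polycyclic tetramate macrolactam made by the bacterium Lysobacter enzymogenes. A messenger RNA level in a bulk sample reflects the balance of transcription and decay, so it can pass below and above its starting level within a short treatment. In such samples fewer cells of a type and less RNA per cell cannot be told apart. The members with a symbol include a biotin synthase, an amino acid permease, a catalase-peroxidase, a phosphatase, a histone methyltransferase and a Dicer-like nuclease of RNA silencing, while 80 of the 89 carry only a locus number.

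Depth differed widely between the libraries. They held 11517462 to 15698448 counts in all, but only 790513 (library I) to 11265740 (library J) on NCU genes, because 2 deposited features without a gene name, newGene_189 and newGene_190, took 25.2 to 93.7% of the counts. The share was 93.7% in I, 80.4% in A and 77.8% in D. In library I a single count equals 5.33 normalised counts, and the limit that a count of 0 allows, 3 counts, equals 16. Of the 65 low-then-high genes, 30 had 0 counts in I, which says only that they were under that limit there. In the 3 HSAF-30 libraries together, 23 of the 65 had under 20 counts. The 24 high-then-low genes had 281 to 21983 counts over the same libraries. The markers of conidia and conidiating hyphae (con-6, con-8, con-10, con-13, eas, ccg-1 and ccg-9) summed to 675 to 1010.4 normalised counts in HSAF-0, 2312 to 3584 in HSAF-5, 1184 to 2992 in HSAF-30 and 1625 to 2846 in HSAF-60. Most of this was ccg-1, whose means were 671, 2271, 2158 and 1982 at the 4 times. con-8 went the other way at 30 min, with means of 80.6 in HSAF-0, 22.9 in HSAF-30 and 50.5 in HSAF-60, and eas had 64.0 in HSAF-0 and 52.3 in HSAF-60. ccg-9 had means of 74.8 in HSAF-0, 57.7 in HSAF-30 and 269.3 in HSAF-60. con-10 was higher later, with means of 0.913 in HSAF-0, 12.9 in HSAF-30 and 15.4 in HSAF-60. con-6 had means of at most 3.44, and con-13 was at 0 in all HSAF-0 libraries. None of these markers was a member, and their part in the result was not tested.

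Opposite deviations at the 2 times were uncommon in the transcriptome. Over the genes kept, 1386 (25.4%) were at 0.5 times the untreated mean or less at 30 min, and 4.69% of these were at 2 times or more at 60 min, while 26.6% were still at 0.5 times or less. For the 1550 genes (28.4%) at 2 times or more at 30 min, 1.55% were at 0.5 times or less at 60 min and 45% were still at 2 times or more. At 60 min, 11.9% of the genes kept were at 0.5 times or less and 19.6% at 2 times or more. The median log2 ratio of the low-then-high genes to HSAF-0 was -1.47 at 30 min (range -3.82 to -1.004) and 1.54 at 60 min (1.01 to 5.19). For the high-then-low genes it was 1.52 at 30 min (1.03 to 2.54) and -1.34 at 60 min (-2.69 to -1.01). All genes kept had medians of -0.02 and 0.05. These ratios are on the scale of the mean plus 5, which understates the change of low genes.

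**Figure D1:**
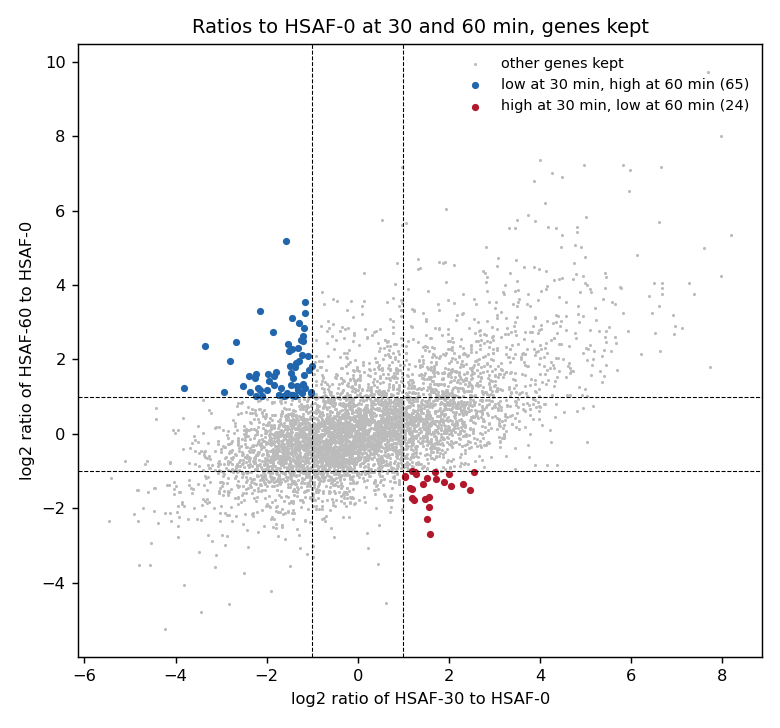
The log2 ratio to HSAF-0 at 30 min (x axis) and at 60 min (y axis) for each of the 5452 genes kept, with the limits of 0.5 and 2 times as dashed lines. The 65 low-then-high genes lie at the upper left and the 24 high-then-low genes at the lower right, where the rule places them. Other genes lie just outside the limits.

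The separate libraries mostly kept the order of the means. Among low-then-high genes, all 3 HSAF-30 libraries lay below all 3 HSAF-0 libraries in 57 of 65, all HSAF-60 libraries lay above them in 57, and both held in 51. Over the genes kept these shares were 32.8%, 31.7% and 3.87%. In the 24 high-then-low genes the corresponding counts were 19, 23 and 19, against 32%, 26.4% and 2.48% of the genes kept. HSAF-60 and HSAF-30 did not overlap in 64 of the 65 and in 23 of the 24. The exceptions were NCU09409, with 0 counts in all HSAF-30 libraries and in library K, and NCU02793. The rule itself puts the means of HSAF-30 and HSAF-60 on opposite sides of the untreated mean, so little overlap between them is largely built in. For this overlap no share over the genes kept was computed. The rule used these libraries, and the counts are given only as a description.

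**Figure D2:**
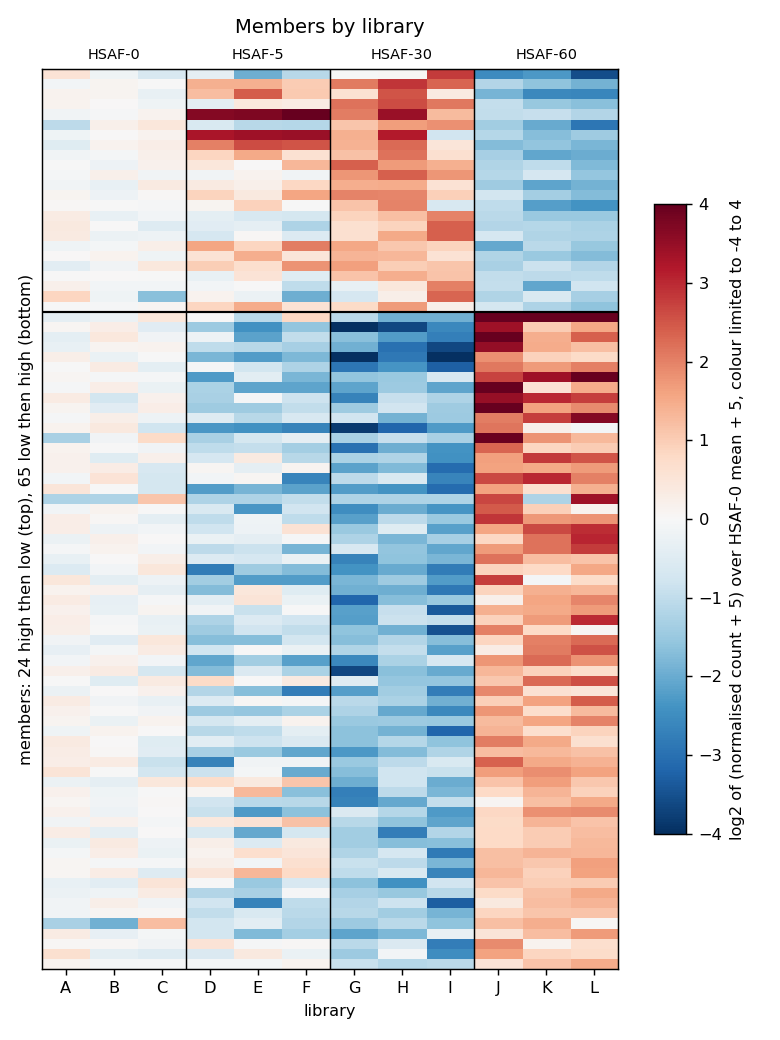
The log2 ratio of each library's normalised count plus 5 to the HSAF-0 mean plus 5, by member (rows) and library (columns), with the colour limited to -4 to 4. The top 24 rows are high in HSAF-30 and low in HSAF-60, the lower 65 rows the opposite, and the HSAF-5 columns resemble HSAF-30 more in some members than in others.

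Among the high-then-low genes, bio-1 and NCU05516 are annotated for biotin, the cofactor of carboxylases. Annotation was read only for members that the study selected at 5 min against HSAF-0. A change at 5 min is therefore built into the choice of annotated genes here and below. The gene bio-1 (NCU03979) encodes biotin synthase, which makes biotin from dethiobiotin. It stood at 1851, 1978 and 2441 normalised counts in the HSAF-0 libraries A, B and C. Its libraries held 6246, 3806 and 8637 at 5 min, 6054, 4388 and 3861 at 30 min and 499, 996 and 733 at 60 min. All 6 libraries of 5 and 30 min were above and all 3 of 60 min were below the untreated range, with mean ratios of 2.98, 2.28 and 0.357. NCU05516, the biotin apo-protein ligase, which attaches biotin to carboxylases, had 438, 525 and 789.9 in HSAF-0, 1165, 939 and 2064 at 5 min, 1838, 1157 and 1280 at 30 min, and 235, 323 and 257 at 60 min. Its 5 and 30 min libraries were likewise all above and its 60 min libraries all below the untreated range, with ratios of 2.37, 2.43 and 0.469. It was picked out after its values were seen, and its gene overlaps 2 others (NCU12100 and NCU05515), whose reads cannot be told apart from its own because no stranded protocol is stated.

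The annotation names 2 aminotransferases, enzymes that move amino groups between amino acids and keto acids. NCU03500, annotated only as an aminotransferase, had 974, 1041 and 1179 normalised counts in HSAF-0, 13674, 14185 and 17324 at 5 min, 4386, 11671 and 2586 at 30 min, and 533, 557 and 466 at 60 min. It was thus highest at 5 min (14.1 times the untreated mean), was still at 5.81 times at 30 min, and reached 0.489 times at 60 min, with no overlap between any of the 4 groups. NCU04292, annotated as a branched-chain-amino-acid aminotransferase, had 182, 179 and 132 in HSAF-0, 392, 898 and 348 at 5 min, 255, 973 and 213 at 30 min, and 42.1, 23.6 and 22.9 at 60 min, so that library H led at 30 min and the HSAF-60 libraries were below all the others. Without H, NCU04292 was no longer a member.

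Transporters and further enzymes were also among the high-then-low genes. pmb (NCU05168) encodes the basic amino acid permease of the plasma membrane. Its normalised counts were 116, 109.6 and 109 in HSAF-0, 121, 216 and 111 at 5 min, 249.8, 459 and 69.3 at 30 min and 52.6, 20.5 and 17.2 at 60 min. At 30 min libraries G and H were above and library I below the untreated range, while HSAF-60 lay wholly below it. The fatty acid elongase NCU08976 was at 3.27 times the untreated mean at 30 min and 0.43 times at 60 min, and the purine transporter NCU01882 was at 2.04 and 0.457 times. Both were picked out after their values were seen, and in both the 3 groups did not overlap. tca-7 (NCU05425) was low at 5 min (380, 319 and 301 against 620, 407 and 465 normalised counts in HSAF-0), above at 30 min (930, 1153 and 1978) and low again at 60 min (234, 175 and 173).

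Other high-then-low genes included a CreD protein and a protein kinase. NCU07675 and NCU09529 are described as hypothetical proteins in the study's annotation. NCU07675 had 74.5, 85.6 and 92.4 normalised counts in HSAF-0, 849, 935 and 975 at 5 min, 235, 800.2 and 48.0 at 30 min, and 35.8, 22.6 and 28.2 at 60 min. Library I, with 9 counts of this gene, was below the untreated libraries at 30 min, whereas the HSAF-5 libraries were all far above them. NCU09529 had 257, 271 and 328 in HSAF-0, 517, 826 and 441 at 5 min, 648, 1295 and 448 at 30 min, and 110.2, 63.6 and 68.3 at 60 min, with no overlap of HSAF-0 with any later group. NCU03887 is annotated as a CreD protein, which in Aspergillus nidulans is an arrestin-like protein of the ubiquitin pathway. Its normalised counts were 128, 203 and 219 in HSAF-0, 765, 1146 and 1064 at 5 min, 493, 897 and 261 at 30 min and 51.9, 58.5 and 47.7 at 60 min. Its mean was highest at 5 min, the comparison from which annotated genes were drawn. stk-39 (NCU06230), a serine/threonine protein kinase, had ratios of 0.777, 3.24 and 0.495 at 5, 30 and 60 min, and 92.0, 58.2 and 59.4 normalised counts in HSAF-0 against 113, 211 and 389 at 30 min.

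Some members for which no role was read were among those that moved most between the 2 times. Annotation was read for only 14 of the 89 members. It describes NCU06983 as a hypothetical protein and does not cover NCU04360, NCU04718 and NCU02977, whose roles were not looked up. NCU06983 had 167, 197 and 177 normalised counts in HSAF-0, 491, 490 and 373 at 5 min, 778, 1343 and 933 at 30 min, and 77.9, 55.4 and 45.3 at 60 min. Its ratio of 30 to 60 min was 15.8. NCU04360 differed from it at 5 min (57.7, 104 and 97.8 against 85.7, 77.4 and 67.7 in HSAF-0) and reached 365, 490.4 and 347 at 30 min before 37.6, 23.6 and 20.5 at 60 min. NCU04718 went from 238, 349 and 389 at 30 min to 37.9, 22.6 and 10.02 at 60 min, around an untreated range of 49.2 to 147. NCU02977 went from 2754, 1727 and 1413 to 226, 257 and 150.4 around 522, 456 and 589.7. In both, the 3 groups did not overlap.

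For 4 high-then-low genes membership rested on library I. NCU08535 had the largest difference between 30 and 60 min of the 24, but its 3 HSAF-30 values were 421, 449 and 3050, against 634, 379 and 277 in HSAF-0, and without I its ratio at 30 min was 1.01. The others were NCU07868 (886, 1051 and 2986 at 30 min, ratio without I 1.70), NCU09492 (60.3, 106 and 320.0, ratio without I 1.09) and NCU02793 (159.8, 309.8 and 1317, ratio without I 0.904). These 4, chosen after their values were seen, had genes of 8360, 6400, 8213 and 34205 bases, and the median was 2422 bases over the genes kept. Among the other 20 high-then-low genes only NCU05723, at 5238 bases, was longer than 5000 bases. At 60 min, where I has no part, NCU08535 was below its untreated range at 70.9, 84.1 and 32.0, while NCU02793, at 111, 167 and 102, overlapped its untreated values of 474, 228 and 78.1.

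**Figure D3:**
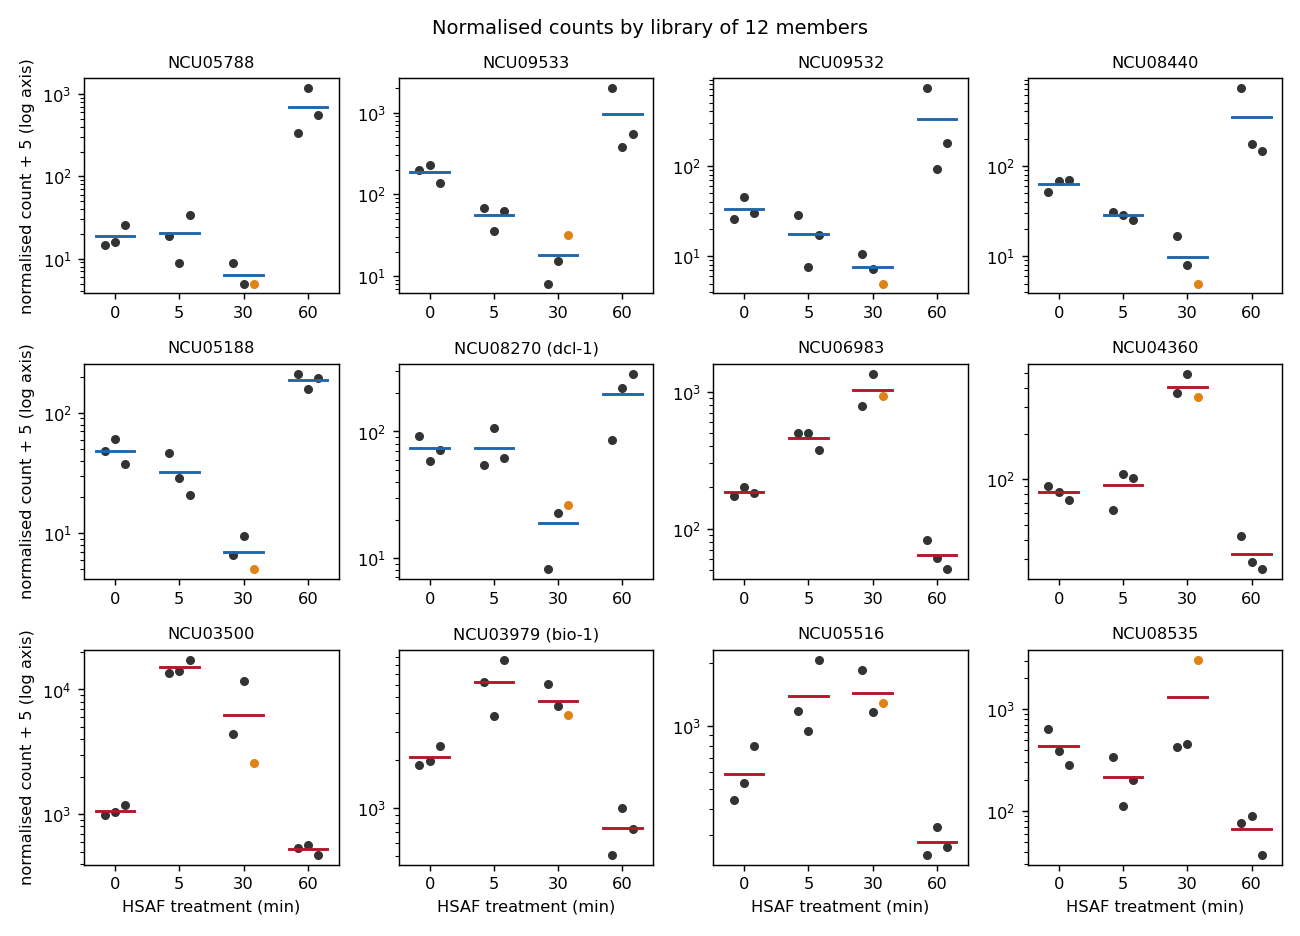
Normalised count plus 5 (log axis) against time of HSAF treatment for 12 members, with a point for each library, library I in orange and a line at each group mean (blue for low then high, red for high then low). NCU03500 is highest at 5 min, NCU06983 and NCU04360 at 30 min, and the high mean of NCU08535 at 30 min is set by library I.

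Of the low-then-high genes, 5 carry a symbol. dcl-1 (NCU08270) encodes a Dicer-like ribonuclease that cuts double-stranded RNA into small RNAs. It had 87.2, 53.4 and 66.0 normalised counts in HSAF-0, 49.7, 101 and 56.3 at 5 min, 3.13, 17.6 and 21.3 at 30 min, and 80.0, 217 and 280.2 at 60 min. The 30 min libraries were all below every other library, while library J at 60 min lay within the untreated range. The gene overlaps NCU08269. dim-5 (NCU04402) encodes the methyltransferase of histone H3 lysine 9 that DNA methylation depends on in N. crassa. Its normalised counts were 28.6, 37.7 and 24.2 in HSAF-0, 33.8, 50.5 and 44.3 at 5 min, 10.2, 16.9 and 0 at 30 min and 75.5, 85.1 and 82.6 at 60 min. The HSAF-60 libraries were close together and above all others, whereas the 30 min ratio of 0.399 became 0.527, outside the limit, without library I.

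Of the enzymes, cat-2 (NCU05770) encodes a catalase-peroxidase, which breaks down hydrogen peroxide. It had 160.2, 109.6 and 65.5 normalised counts in HSAF-0, 59.6, 104.9 and 23.98 at 5 min, 30.5, 62.4 and 58.7 at 30 min and 364, 417 and 349 at 60 min, so the drop was close to the untreated range and the later excess was clear of it. It left the set without library A or without library G. pho-2 (NCU01376) encodes the repressible alkaline phosphatase that frees phosphate when phosphate is scarce. It was at 31.7, 24.7 and 19.8 in HSAF-0, 1.57, 11.7 and 10.7 at 30 min and 52.6, 94.4 and 235 at 60 min. gh76-5 (NCU09937), of a glycoside hydrolase family that holds alpha-1,6-mannanases, was at 30.1, 30.1 and 25.9 in HSAF-0, 10.96, 17.6 and 0 at 30 min and 121, 31.8 and 48.2 at 60 min. It left the set without library I or without library J. NCU02343, an alpha-L-arabinofuranosidase that releases arabinose from plant polysaccharides, had ratios of 0.466, 0.19 and 2.94 at 5, 30 and 60 min, and NCU09283, an acetyltransferase, had 0.436, 0.405 and 4.92. Both were picked out after their values were seen. Without library J the 60 min ratio of NCU02343 was 1.91.

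Genes for which no annotation was read had some of the largest swings between 30 and 60 min. Annotation was read for only 14 of the 89 members. NCU05788 had 9.52, 10.96 and 20.9 normalised counts in HSAF-0, 13.9, 3.98 and 28.6 at 5 min, 3.92, 0 and 0 at 30 min, and 326, 1169 and 548 at 60 min. At 60 min it was 36.5 times the untreated mean, the highest ratio among the members, while its drop at 30 min, from at most 20.9, rested on 5 counts in library G. NCU05188 had 42.8, 55.5 and 32.5 in HSAF-0, 1.57, 4.40 and 0 at 30 min and 206, 154 and 191 at 60 min, with libraries of each group close together. NCU02887 had 460.0, 324 and 385 in HSAF-0, 107, 78.3 and 108 at 5 min, 18.8, 49.9 and 0 at 30 min, and 1384, 740.5 and 667 at 60 min. It had the lowest ratio of any member at 30 min, 0.0707, and at 60 min stood at 2.37 times the untreated mean, or 1.80 times without library J.

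In several of these genes library J, the deepest, was far above K and L at 60 min. NCU08440, described as a hypothetical protein, had 716, 170.3 and 139.9 normalised counts in J, K and L, against 46.0, 63.7 and 64.4 in HSAF-0 and 11.7, 2.94 and 0 at 30 min. All HSAF-60 libraries were above HSAF-0, and without J the ratio fell from 5.51 to 2.54. NCU07064 had 340.1, 27.7 and 56.3, against 15.9, 21.2 and 13.2 in HSAF-0, and NCU05897 had 286, 35.9 and 44.9, against 0, 2.94 and 0 at 30 min. Without J neither NCU07064 nor NCU05897 reached the minimum mean. By contrast NCU01138 was highest in L (152, 252.3 and 430.1, against 18.5 to 20.6 in HSAF-0), and NCU07607 had 690.0, 494 and 409, all above its untreated range of 32.2 to 73.0. Library J was the highest HSAF-60 library in 26 of the 65 genes, K in 12 and L in 27. Of the 65, 49 remained members without J and 52 without L.

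Expression levels differed between the directions, as a description. The rule used the values at 0, 30 and 60 min, so these levels are partly set by the choice of members. A part of the low-then-high genes reached the minimum mean only at 60 min. In deposited FPKM, a level per length, the median of the low-then-high genes was 1.93 in HSAF-0, 0.35 in HSAF-30 and 9.23 in HSAF-60. For the high-then-low genes it was 5.97, 14.9 and 2.72, and for all genes kept 5.17, 4.52 and 8.68. The most abundant member was NCU05338, with a mean FPKM of 209.5 in HSAF-0. Its normalised counts were 7946, 9953 and 8349 in HSAF-0, 11674, 13059 and 19888 at 5 min, 4051, 2854 and 2016 at 30 min, and 14889, 22395 and 19450 at 60 min. It thus lay above the untreated range at 5 min and below it at 30 min, with 378 counts even in library I. It was picked out after its values were seen, and it overlaps NCU05340.

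The 5 min libraries entered the choice of members only through the minimum mean, although the comparison shares HSAF-0 with the rule. A part of the low-then-high genes passed that minimum only through HSAF-60, where the rule makes them high. At 5 min 53 of the 65 low-then-high genes were below the untreated mean, 24 (36.9%) were at 0.5 times or less and 0 at 2 times or more. Over the genes kept, 11.8% were at 0.5 times or less. Of the 24 high-then-low genes, 15 were above the untreated mean, 10 (41.7%) were at 2 times or more and 0 at 0.5 times or less, with 18.5% of the genes kept at 2 times or more. All 3 HSAF-5 libraries lay below all HSAF-0 libraries in 28 of the 65 (26.5% of the genes kept) and above them in 11 of the 24 (27.3% of the genes kept). The share already on the 30 min side at 5 min was 81.5% for the low-then-high genes, and 84.9% for all genes at 0.5 times or less at 30 min. For the high-then-low genes it was 62.5%, against 82.8% for all genes at 2 times or more at 30 min. The median log2 ratio at 5 min was -0.74 for the low-then-high genes. It was -0.66 for all genes at 0.5 times or less at 30 min. For the high-then-low genes the median was 0.60, below the 0.99 of all genes at 2 times or more at 30 min. An early shift was thus not particular to the members. These differences were not tested.

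All 89 members were among the 7582 genes tested at 5 min with edgeR's quasi-likelihood test. Genes were called when the p adjusted after Benjamini and Hochberg was below 0.01 and the log2 fold change reached 1 in size, and 10 members were called. Of the low-then-high genes, 5 (7.69%) were lower in this edgeR test, beside 2.27% of all genes tested, and 0 were higher. At an unadjusted p under 0.05, 2 were higher, and DESeq2 called 0 higher. The 5 were NCU07333, NCU04936, NCU01905, NCU04322 and NCU04728, all outside the naming rule. Of these, NCU07333, NCU04322 and NCU04728 had HSAF-0 means of 37.0, 31.3 and 29.8 and passed the minimum mean only at 60 min. The 2.27% is over genes passed by another filter than the minimum mean, so the 2 shares rest on unlike choices of genes. NCU07333 fell from 53.9, 36.3 and 20.9 normalised counts in HSAF-0 to 3.98, 6.64 and 4.61 at 5 min, a log2 fold change of -2.75 (SE 0.55, edgeR adjusted p = 0.00163). NCU04936 fell from 173, 210.3 and 173 to 39.8, 67.7 and 36.9, a log2 fold change of -1.90 (SE 0.41, edgeR adjusted p = 0.0030). Its mean was lower at 5 than at 30 min, but the libraries overlapped (26.6, 74.1 and 117 at 30 min) and this difference was not tested. The other 3 fell by 2.13 to 2.73 on the log2 scale, with edgeR adjusted p of 0.00377 for NCU01905, 0.00646 for NCU04322 and 0.0082 for NCU04728. Without library F 0 of the low-then-high genes were called lower, and without B or D 1 was. NCU01905 was at 1.04 times the untreated mean at 60 min without library J, and so left the set.

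Of the high-then-low genes, 5 (20.8%) were higher at 5 min in the same test, beside 9.72% of all genes tested, and 0 were lower. At an unadjusted p under 0.05, 1 was lower, and DESeq2 called 0 lower. The aminotransferase NCU03500 rose most, by a log2 fold change of 3.87 (SE 0.49, edgeR adjusted p = 2.67e-05). NCU07675 rose by 3.49 (SE 0.64, edgeR adjusted p = 0.000789) and the CreD protein NCU03887 by 2.48 (SE 0.42, edgeR adjusted p = 0.000394). bio-1 rose by 1.63 (SE 0.37, edgeR adjusted p = 0.00462) and NCU06983 by 1.37 (SE 0.32, edgeR adjusted p = 0.0051). Only NCU03500, NCU07675 and NCU03887 were called with each of the 12 libraries left out in turn, and limma on log2(FPKM + 1) called none of the 10. The log2 fold changes of NCU04292 (1.78, edgeR adjusted p = 0.026), NCU05516 (1.30, edgeR adjusted p = 0.015) and NCU09529 (1.10, edgeR adjusted p = 0.0616) did not pass. The 5 genes further from the untreated level at 5 than at 30 min were NCU03500, NCU07675, NCU03887, NCU04292 and bio-1.

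**Figure D4:**
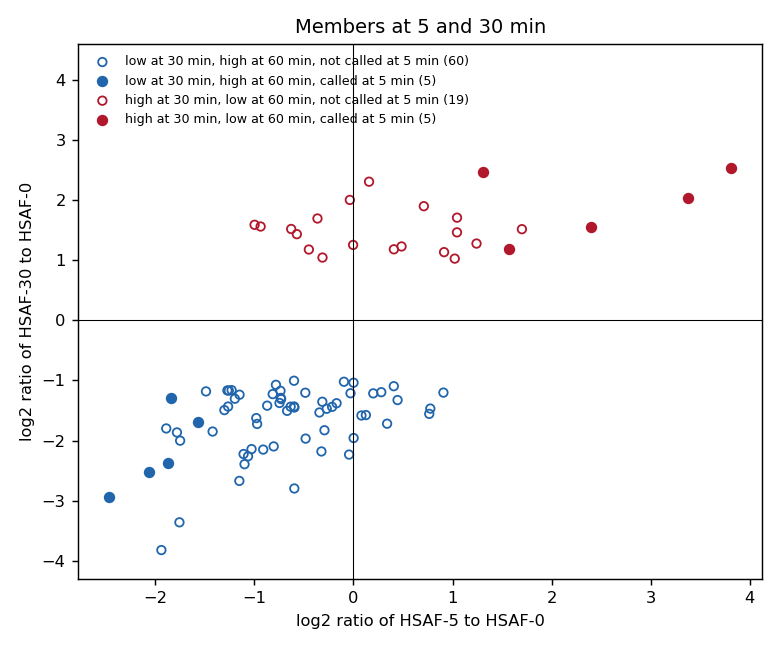
Log2 ratio to HSAF-0 at 5 min (x axis) and at 30 min (y axis) for the 89 members, filled where edgeR called the gene at 5 min (5 of 65 low-then-high in blue, 5 of 24 high-then-low in red). Most low-then-high genes lie left of 0 at 5 min, while the high-then-low genes spread from -0.999 to 3.82.

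The pattern was also read in HSAF-30 and HSAF-60 libraries left out of the choice. For each of these libraries the rule was applied without it, and the library was then compared with the HSAF-0 mean, which had a part in the choice. Of the low-then-high genes chosen without G, H or I, 76.5% (52 of 68), 61.3% (46 of 75) and 67.1% (47 of 70) were at 0.5 times or less in the library left out, against 28.9%, 24.5% and 32.2% of all genes kept. In I a single count equals 5.33 normalised counts, and 30 of the 65 low-then-high members had 0 counts there. The share in I is therefore limited by depth, and genes of like level were not compared. At 60 min the share at 2 times or more was 45.5% (30 of 66) in J, 54.5% (42 of 77) in K and 59.1% (39 of 66) in L, against 14.4%, 20% and 22.1%. For the high-then-low genes the 60 min libraries gave 46.9% (15 of 32) in J, 53.1% (17 of 32) in K and 81.8% (18 of 22) in L at 0.5 times or less, against 8.37%, 15.9% and 18.1%. Their 30 min excess was at 44.1% (15 of 34) in G and 56% (14 of 25) in H, against 29% and 26.6%. In I it was 29.4% (10 of 34), near the 27.6% of all genes kept. The members so chosen differ in part from the 89, and the shares carry no test.

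**Figure D5:**
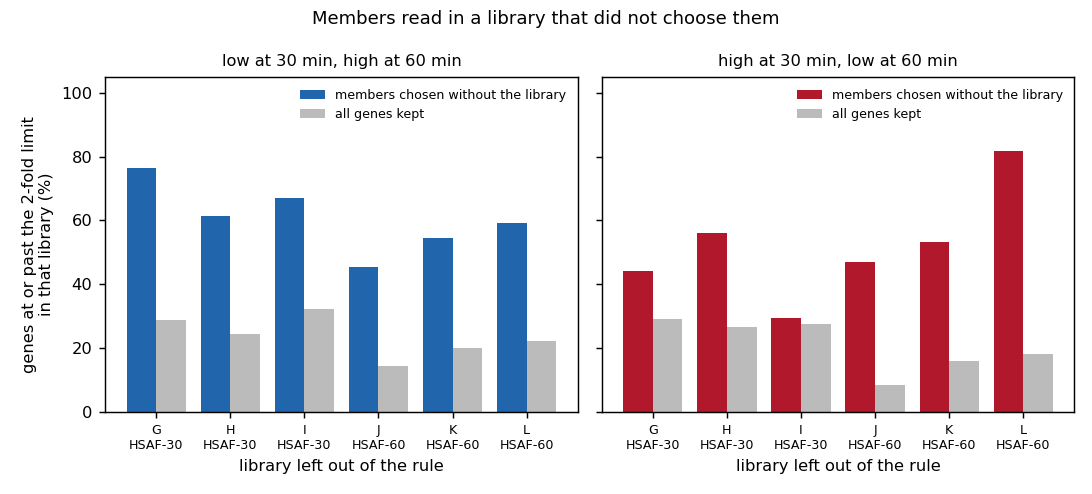
Share of genes (%) at or past the 0.5 or 2 times limit in a library that was left out when the members were chosen, for each of G to L, with low-then-high genes at the left, high-then-low genes at the right and all genes kept in grey. The gap between members and grey bars is smallest for the high-then-low genes in library I, at 29.4% and 27.6%.

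Membership itself varied with the libraries. With each library left out in turn, 23 of the 65 and 9 of the 24 were chosen in all 12 runs. They included NCU05788, NCU09533, NCU09532, NCU08440, NCU05188, NCU07607 and dcl-1 among the low-then-high genes, and NCU06983, NCU04360, NCU04718, NCU03887, NCU02977 and tca-7 among the high-then-low genes. Of the genes named above, NCU07675, NCU09529, NCU04292 and pmb left the set without H, bio-1, pho-2 and NCU01138 without G, and NCU03500 and NCU05516 without C, as did NCU03500 without L and NCU05516 without J. Without library I, 55 of the 65 and 20 of the 24 remained. Without A, D and I together, the libraries richest in newGene_189 and newGene_190, the rule chose 69 and 41 genes, of which 45 and 19 were among the 89. Just inside the limits lay NCU10038 (log2 ratio -1.004 at 30 min and 1.82 at 60 min), NCU02597 (-2.22 and 1.01) and NCU11341 (-2.10 and 1.01). Just outside lay NCU03253 (0.998 and -1.79), NCU00559 (-1.07 and 0.996) and NCU00584 (-0.995 and 1.15).

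Some members were neighbours in the gene order of the RefSeq annotation. NCU09532 and NCU09533 are adjacent and were both low then high. NCU09533 had 194, 224 and 133 normalised counts in HSAF-0, 63.6, 30.5 and 58.1 at 5 min, 3.13, 10.3 and 26.7 at 30 min and 1990, 372 and 551 at 60 min. NCU09532 had 20.6, 39.7 and 25.3, then 23.9, 2.66 and 11.99, then 5.48, 2.20 and 0, then 717, 86.2 and 173. In both, library J was the highest at 60 min, and without it the ratios at 60 min were 2.48 and 4.01. NCU09529, which was high then low, is separated from NCU09532 by 1 gene, NCU09530, which was not kept. NCU09528, on the other side of NCU09529, was low at both times, with log2 ratios of -2.07 and -1.04, and NCU09534, which overlaps NCU09533, had -0.49 and -0.78. NCU09535, the next gene, had -1.60 and 0.22, on the same sides as NCU09533 but inside the limit at 60 min.

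Adjacent pairs were also found elsewhere. NCU08439 lies next to NCU08440, with 27.0, 13.02 and 15.4 normalised counts in HSAF-0, 1.57, 3.67 and 0 at 30 min and 155, 17.4 and 34.4 at 60 min, again led by J. The next gene, NCU08441, was no member and had log2 ratios of 0.16 at 30 min and 2.83 at 60 min. NCU16716 and NCU08764 are adjacent and rank L over K over J at 60 min, at 24.2, 60.5 and 72.1 and at 26.0, 64.6 and 81.2 in J, K and L. Their values at 30 min, at most 2.20 and 5.48, were too low to be told from 0 in library I. NCU11088 (low then high) and NCU09492 (high then low) are separated by 2 genes.

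Few of the gene lists drawn up by reference symbol held a member. Of 31 glycoside hydrolases kept, 1 was a member (gh76-5), as was 1 of 11 genes of oxidative stress (cat-2). The 4 chitin synthases kept, which make the chitin of the cell wall, gave 0 members, with 4 at 2 times or more at 30 min and 3 at 60 min. There were also 0 members among 10 conidiation and clock-controlled genes, 10 heat shock proteins, 7 ribosomal proteins, 13 genes of nitrogen and sulfur control, 5 regulators of conidiation and light response, 2 sugar and cellulose genes and 1 autophagy gene. Members made up 1.63% of the genes kept, and no test was made of these lists. By gene length the low-then-high genes (median 2300 bases) were near the 2422 of all genes kept, and the high-then-low genes had a median of 3266. Of the 65, 20 overlap another gene in the annotation, as do 3 of the 24 and 28.1% of the genes kept, and for these genes reads cannot be assigned with certainty. Besides the overlaps given above they include NCU04360, pmb, NCU02887, NCU07064, NCU09283 and NCU11341.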

How the data were processed

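The 12 RNA-seq libraries of Neurospora crassa mycelium cover 0, 5, 30 and 60 min with HSAF, 3 for each time. Libraries were prepared with a NEBNext Ultra kit, and reads were trimmed with Trimmomatic. Aligner, counter and build: not given in the sources used here. Raw counts per library were deposited by the authors for 11409 features (9729 NCU genes and 1680 newGene features), beside FPKM of the same features, which the authors scaled to totals that include newGene_189 and newGene_190. The sequencers are not assigned to libraries, so a batch could not be modelled. The labels and the paper's methods differ in the age of the culture.

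The rule was applied to NCU counts divided by DESeq2-style median-of-ratios size factors, using numpy 2.4.6, pandas 2.3.3 and matplotlib 3.10.9 under Python 3.11.15. The counts were fitted in R 4.3.3 with edgeR 4.0.16 (filterByExpr with a minimum count of 10, TMM on NCU genes, 12 libraries with 1 term per time, common dispersion 0.126), and p-values were adjusted over all 7582 genes tested. Of this fit only 5 min against HSAF-0 is reported for the members. The edgeR and rule scripts were tested on simulated data. Replicate libraries differed by more than sampling noise, so none was counted as a duplicate. Floors of 3 counts cover counting error only.

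The members and lists were chosen with earlier results of these data known. Genes named were the 10 members of each direction with the largest difference between 60 and 30 min, all members with a symbol, and the 3 nearest to a limit on each side. Other genes named (neighbours, calls at 5 min, members that rest on a library, annotated members) were picked out after their values were seen. Gene symbols, lengths and order came from the RefSeq annotation NC12 (all 89 members matched and all protein coding). Functional annotation was read for 14 members from the part of the study's table of 5 min against HSAF-0 that could be read, so it covers members selected there at 5 min. Fold changes and p-values of that table were not used. Alternatives were TMM and upper quartile factors, library totals, deposited FPKM, other constants, minimums and fold limits, group medians, DESeq2 1.42.0, limma 3.58.1 on log2(FPKM + 1) and log2(FPKM + 0.1), no filter, only the 2 groups, and each library left out. A minimum applied after 5 was added, and a run without A, D and I, were added after seeing the data.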

Additional observations from a re-analysis of the deposited data

Results flagged for a closer look

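The deposited features without a gene name lie outside the comparisons above. Of 175 newGene features kept under the same minimum mean, 3 met the rule, all high at 30 min and low at 60 min. newGene_190 was at 2.46 times the untreated mean at 30 min and 0.443 times at 60 min. Its HSAF-30 libraries G, H and I had 1355804, 1556638 and 3585972 counts, and after division by the size factors only library I was above all untreated libraries. newGene_1852 was at 2.11 times at 30 min and 0.495 times at 60 min, with 13, 65 and 92 counts in HSAF-0, 185, 114 and 6 in HSAF-30, and 45, 14 and 41 in HSAF-60. newGene_186 was at 2.55 times at 30 min and 0.390 times at 60 min, with 19, 10 and 48 counts in HSAF-30, of which only the 48 of library I lay above the untreated libraries in normalised counts.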

How the results depend on the processing

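No paired analysis was possible because no replicate number links libraries of different time points. The rule chose 89 genes (65 low then high, 24 high then low). The 32 members named by the rule for named genes were followed under other scalings, deposited FPKM and each library left out. Where these gave a value, the members stayed on the same side of HSAF-0 at 30 and 60 min. Only the side was judged, and NCU08535 was at 1.01 times at 30 min without library I. Other constants, minimums and group medians were not followed for single genes. NCU02793, outside the rule for named genes, was at 0.904 times the untreated mean at 30 min without library I. The count was 274 (268 and 6) with totals over all features, 173 (169 and 4) with deposited FPKM, 46 (27 and 19) with a constant of 20, 373 (209 and 164) with a 1.5-fold limit and 9 (8 and 1) with a 3-fold limit. Totals on NCU genes gave 111 low-then-high and 14 high-then-low genes, and a constant of 1 gave 38 high-then-low genes. These scalings move the median log2 ratio of all genes kept: at 30 and 60 min it was -0.42 and 0.58 with totals over all features, -0.31 and 0.50 with FPKM, -0.24 and 0.16 with totals on NCU genes, and -0.23 and -0.12 with upper quartile factors. Without A, D and I there were 41 high-then-low genes. Leaving out each library in turn gave 88 to 109 genes, 64 to 77 low then high and 22 to 35 high then low. At 5 min 10 members of 909 genes were called. DESeq2 called 17 members, a fit to only the 2 groups 19 members of 1389 genes, an adjusted p below 0.05 with no limit on the fold 19 of 1654, and limma 0 of 42, 0 of 63 and, without a filter, 0 of 1. Without A, D and I, 3 members of 517 genes were called. Leaving out each library gave 4 to 12 members and 568 to 1092 genes, with 4 members without B, D or F and 5 without A, and 576, 601 and 568 genes without A, B or C. Of 1623 alternative ratios of these 32 members, 1514 moved by no more than the spread between libraries. They include runs without a library of a group that the ratio does not use, which could not change it. An outlying library also widens the spread. The 30 min ratio of NCU08535 fell from 3.01 to 1.01 without library I and was still counted within it. The total is therefore no measure of stability. Of 220 alternative 5 min fold changes of the called members, 76 no longer passed. Depth limits the low values: a gene with under 3 counts in library I cannot be told from 0.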
